A study of Mus musculus with 32 samples.

Results

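Krüppel-like factors (KLFs) are zinc-finger transcription factors, and 10 of them with a described part in fat cell formation were followed here through the differentiation of 3T3-L1 cells. 3T3-L1 is a mouse embryonic fibroblast line committed to the fat lineage, which turns into lipid-filled cells when treated with hormones. The members were Klf2, Klf3, Klf4, Klf5, Klf6, Klf7, Klf9, Klf10, Klf13 and Klf15, taken by gene symbol from the 20560 genes of the deposited expression table. All 10 were in the table, and all 10 passed the filter on low deposited values in every comparison below. RNA was sequenced in 32 libraries, with 8 at each of days 0, 3, 7 and 11. Of the 8 libraries, 4 carried a scramble short hairpin RNA (shRNA) as control, 2 carried shRNA 1 against Zbtb9, and 2 carried shRNA 2 against Zbtb9. Zbtb9 encodes a BTB-domain zinc-finger protein, and the comparisons asked what its knockdown does to gene expression at each stage. All cells, controls included, got dexamethasone (a glucocorticoid), 3-isobutyl-1-methylxanthine (which raises cAMP) and insulin at day 0, insulin alone from day 3, and no additive from day 7. Whether day 0 cells were taken before the hormones is not given in the sources used here. The labels call the libraries of a group biological replicates without naming separate cultures, so p-values measure the spread between these libraries.

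The KLF family binds CACCC boxes and GC-rich promoter elements through zinc fingers at the carboxyl end, while the rest of each protein recruits activators or repressors. In fat cell formation the family is known to work as a relay. Klf4 with Egr2 turns on Cebpb, C/EBP proteins turn on Klf5, and Klf5, Klf6, Klf9 and Klf15 favour Pparg or the adipocyte program. Klf2, Klf3 and Klf7 are known as brakes that hold preadipocytes back. Klf10 and Klf13 belong, with Klf9, to the subgroup that binds the Sin3 corepressor.

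The deposited values are log2-scaled and resemble a regularized log transform, which draws each gene towards its own mean. Whole reads were rebuilt from them, and a normalized read count below is the rebuilt count over the size factor of its library. Libraries held 22280335 to 31073691 rebuilt reads in genes, with control and knockdown ranges overlapping on days 0, 3 and 7. At day 11 controls held 26486020 to 31073691 and knockdown libraries 22839466 to 25511825. Zbtb9 itself was rare, at 6.35 to 22.3 normalized reads in control and 0 to 19.3 in knockdown libraries. Its mean in knockdown cells was 61.9%, 50.6%, 42.7% and 54.5% of control at days 0, 3, 7 and 11. These values pool the 2 shRNAs. At day 11 the mean was 15.5 normalized reads in control, 13.7 with shRNA 1 (8.17 and 19.3) and 3.19 with shRNA 2 (2.13 and 4.25). The shRNAs differed there by -0.42 without passing the test (limma adjusted p = 0.12). The log2 difference of the pooled knockdown libraries passed the test at day 7 alone (-0.35 ± 0.12 SE, adjusted p = 0.0288), and day 3 was below the filter. At day 7 it passed the filter through its controls, with 1 of the 4 knockdown libraries at the filter level, so this difference is a description. In the GENCODE M21 annotation 84.4% of the exon bases of Zbtb9 are shared with Ggnbp1 on the same strand, so these reads are uncertain. The summed level of 12 adipocyte markers ran from 59336 to 64371 normalized reads in control and from 157066 to 229115 in knockdown libraries at day 7, and from 60626 to 71273 and 129780 to 155184 at day 11. Of those markers, 12 of 12 were higher in knockdown cells at days 3 and 7 and 11 of 12 at day 11, where 14.6%, 24.9% and 16.8% of all genes were higher. Preadipocyte and fibroblast markers were lower for 7 of 8 at day 7 and 4 of 8 at day 11, where 22.6% and 16.2% of all genes were lower. The sums were already apart at day 0. Adipocyte markers held 20214 to 20722 in control and 22359 to 23806 in knockdown libraries, with Lpl means of 18693 and 21383. Preadipocyte and fibroblast markers held 531098.5 to 549286 in control and 432105 to 498932 in knockdown libraries. Lpl alone of 12 was called higher and 2 of 8 (Col1a1 and Vim) lower, where 0.817% and 2.44% of all genes were. Summed endothelial markers lay between 5.3 and 48.7 normalized reads over all libraries. Summed immune markers reached 585 in knockdown and 264 in control libraries, both at day 11, nearly all from Cd68, with Ptprc and Itgam near 0. Summed epithelial markers reached 724 in knockdown and 32.5 in control libraries, both at day 7, from Krt8 and Krt18, with Epcam and Cdh1 near 0. The share of these marker differences in the KLF differences was not tested. In bulk RNA, fewer cells of a type and less RNA per cell cannot be told apart.

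The members lie on 10 different chromosomes of GRCm38, each a protein-coding gene. Klf15 is at chr6:90462576-90475238 on the plus strand, Klf9 at chr19:23141226-23168134 on the plus strand, and Klf3 at chr5:64803388-64832901 on the plus strand. For Klf7, 39.4% of exon bases overlap genes on the other strand, Gm13748 and Gm26649, and for Klf3 3.6% overlap Gm20033. Since the use of strand in counting is not given in the sources used here, reads of these genes may be mixed. RefSeq promoters (GRCm38.p6, 250 bases before to 50 after the start) matched 8 of the 10 members, without Klf5 and Klf10. The windows below are the 100 bases just before the annotated GENCODE start of Klf15 and Klf9, which were higher in knockdown cells at days 7 and 11, and of Klf3, which was lower on both days. Capitals mark the KLF box CACCC, the GC box GGGCGG and the cAMP response element core TGACG on either strand, where runs of capitals in Klf3 include 1 overlapping pair.
Klf15 promoter, chr6:90462476-90462575, plus strand: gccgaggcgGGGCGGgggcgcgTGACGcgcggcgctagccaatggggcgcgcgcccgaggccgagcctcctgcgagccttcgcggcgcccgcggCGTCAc
Klf9 promoter, chr19:23141126-23141225, plus strand: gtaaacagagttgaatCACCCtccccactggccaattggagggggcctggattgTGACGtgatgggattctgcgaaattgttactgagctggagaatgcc
Klf3 promoter, chr5:64803288-64803387, plus strand: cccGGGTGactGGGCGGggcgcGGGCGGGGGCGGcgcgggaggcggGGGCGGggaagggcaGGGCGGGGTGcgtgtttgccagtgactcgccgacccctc
The Klf3 window holds 5 copies of the GC box and 2 of the KLF box. The Klf15 window holds 1 GC box and 2 copies of TGACG, the second of them at the last bases before the start. The Klf9 window holds 1 CACCC and 1 TGACG. Over the whole 300 bases, CACCC was in 6 of 8 members and in 57.5% of all 32851 promoters, GGGCGG in 7 of 8 and 35.7%, and TGACG in 6 of 8 and 20.8%. The E-box CACGTG was in 3 of 8 members (Klf4, Klf6 and Klf15) and in 7.2% of promoters. The C/EBP-type motif TTGCNNAA, in 10.8% of promoters, was matched in none of the 8. These are letter matches on both strands, not measured binding.

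In control cells the family went through large, gene-specific changes as the cells differentiated. From day 0 to day 3, 10 of 10 members passed the test, 7 higher and 3 lower, where 76.6% of 13421 genes did (38.3% higher and 38.2% lower). With libraries scaled to equal totals the all-gene median of this step moved to -0.124, and 38.6% of calls were higher in place of 50.1%. The known brakes Klf2, Klf3 and Klf7 were the 3 that fell. From day 3 to day 7, 9 of 10 passed, 3 higher and 6 lower, where 74.2% of genes did (37.6% and 36.6%). From day 7 to day 11, 10 of 10 passed, 4 higher and 6 lower, where 55% of genes did (28.9% and 26.1%). Between days 11 and 0, 9 of 10 passed, 7 higher and 2 lower, where 64.6% of genes did (33% and 31.6%). The shares of members called were near or above those of all genes, so the counts alone say little about the family. These comparisons share the control libraries of the days they have in common. All adjusted p-values are from limma over all genes tested, and a gene is called below 0.05.

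**Figure D1:**
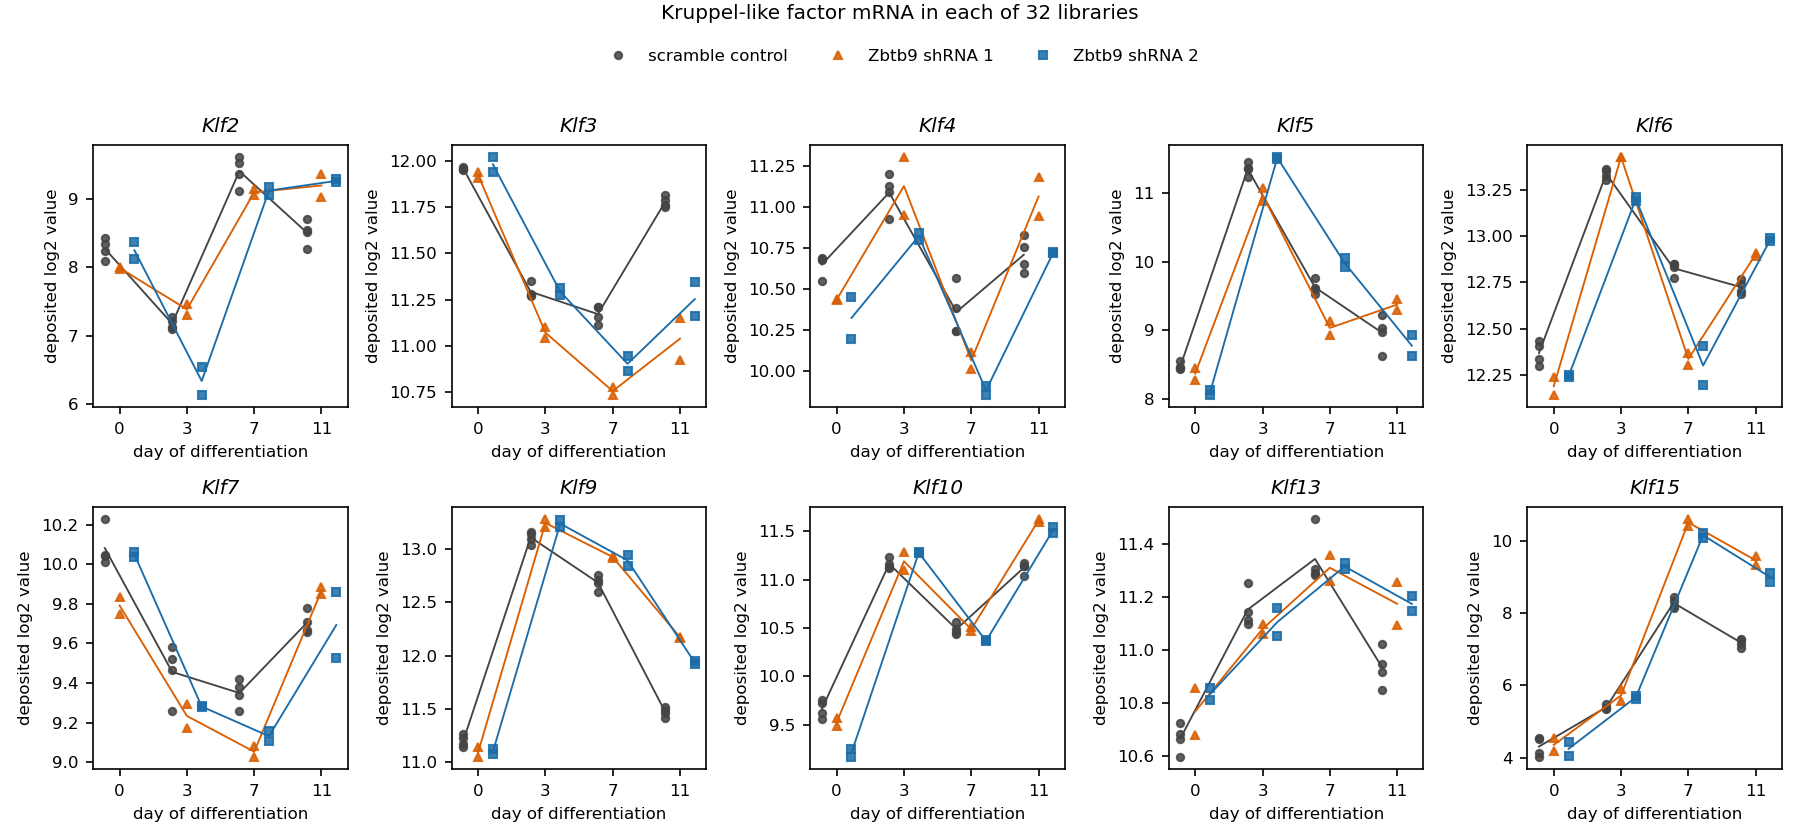
Deposited log2 value (vertical axis, own scale in each panel) of the 10 members by day of differentiation (horizontal axis); each point is 1 library of the scramble control (circles), shRNA 1 (triangles) or shRNA 2 (squares), and lines join group means. Klf5, Klf6 and Klf9 peak at day 3 in every arm, while Klf15 peaks at day 7 and is higher in both knockdown arms at days 7 and 11.

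Klf5, the factor that follows the early C/EBP proteins and acts on Pparg, had the largest early rise. Its normalized reads in the 4 control libraries were 333, 337, 359 and 328 at day 0, 2555, 2973, 2804 and 2786 at day 3, 742, 873, 778 and 785 at day 7 and 380, 491, 589 and 511 at day 11. No 2 neighbouring days overlapped, so the order from low to high was day 0, day 11, day 7 and day 3. The mean rose 8.19-fold by day 3 (log2 difference 2.87 ± 0.08 SE, adjusted p = 2.55e-20), which ranked 194 of 13421 genes by size. It then fell by 1.72 and by 0.66 on the log2 scale at the next steps, to 1.45 times the day 0 level.

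Klf9, a glucocorticoid-responsive factor that acts on Pparg in mid-differentiation, had the same order of days. Control libraries held 2209, 2255, 2402 and 2336 normalized reads at day 0, 8588, 9225, 9370 and 8937 at day 3, 6627, 6766, 7021 and 6264 at day 7 and 2773, 2679, 2835 and 2883 at day 11. The days were separate throughout. The rise by day 3 was 3.93-fold (1.91 ± 0.04 SE, adjusted p = 1.46e-30), and the largest single step down was from day 7 to day 11 (fell by 1.21 on the log2 scale, adjusted p = 6.18e-24). Insulin was withdrawn at day 7, and time and medium cannot be told apart.

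Klf6, known to repress Dlk1, rose 2.00-fold from a control range of 4975 to 5485 normalized reads at day 0 to 10245 to 10702 at day 3 (0.97 ± 0.03 SE, adjusted p = 3.42e-23). It lay at 6992 to 7409 at day 7 and 6591 to 6975 at day 11, still above day 0. Klf4, the partner of Egr2 on Cebpb, changed less. Its control reads were 1496, 1645, 1654 and 1638 at day 0 and 2277, 2402, 2221 and 1966 at day 3, a called rise of 0.44 ± 0.07 SE (log2, adjusted p = 2.97e-06). They were 1195, 1327, 1513 and 1196 at day 7 and 1610, 1739, 1548 and 1828 at day 11. Days 0 and 7 overlapped, as did days 0 and 11, and day 11 against day 0 was not called (0.06, 95% interval -0.08 to 0.20, adjusted p = 0.455).

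Klf10, a TGF-beta-inducible repressor, rose 2.96-fold by day 3 (1.50 ± 0.05 SE, adjusted p = 7.95e-25), fell at day 7 and rose again by day 11. Its control ranges were 726 to 838 normalized reads at day 0, 2255 to 2458 at day 3, 1383 to 1511 at day 7 and 2121 to 2344 at day 11. Days 3 and 11 overlapped. Klf10 was the member with the highest control level at day 11 relative to day 0 after Klf15, at 2.88-fold (1.46 ± 0.05 SE, adjusted p = 8.65e-24). Klf13, which also binds Sin3, had the smallest span, from 1526 to 1674 normalized reads at day 0 through 2195 to 2453 at day 3 to 2506 to 2920 at day 7, a mean 1.63-fold above day 0. It then fell to 1830 to 2077 at day 11 (fell by 0.41 on the log2 scale, adjusted p = 4.92e-09).

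Klf15, an activator of the insulin-responsive glucose transporter gene Slc2a4 and of amino acid breakdown genes, was nearly silent at day 0. Control libraries held 3.37, 8.10, 9.38 and 1.66 normalized reads at day 0, 29.4, 29.6, 34.5 and 29.8 at day 3, 395, 324, 315 and 360 at day 7 and 159, 147, 163 and 135 at day 11. The 4 days did not overlap, with day 7 highest. The step from day 3 to day 7 was 2.89 ± 0.12 SE on the deposited log2 scale (adjusted p = 3.34e-21), rank 96 of 13421 genes. In normalized reads the day 7 mean was 61.9 times that of day 0, a ratio that rests on the few reads of day 0. On the deposited log2 scale the same means differed by 3.98. By day 11 the level had fallen by 1.10 on the log2 scale (adjusted p = 9.41e-10).

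Of the 3 brakes, Klf3 and Klf7 were lowest at day 7 and highest at day 0, while Klf2 was lowest at day 3 and highest at day 7. Klf2, which represses the Pparg promoter, had control reads of 325, 299, 344 and 268 at day 0 and 133, 124, 120 and 140 at day 3, a 2.39-fold fall (log2 difference -1.09 ± 0.10 SE, adjusted p = 6.69e-12). At day 7 it stood at 580, 791, 846 and 702, a 5.65-fold rise (2.22 ± 0.10 SE, adjusted p = 1.45e-19), and at day 11 at 369, 429, 306 and 380. Day 7 was above every other day and day 3 below, while days 0 and 11 overlapped. The call for day 11 against day 0 (0.24 ± 0.10 SE, adjusted p = 0.0329) was lost in 9 of 16 other settings, among them leaving out day 0 replicate 2 or 4 or day 11 replicate 1, 2 or 4 (adjusted p up to 0.146).

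Klf3, which recruits CtBP to repress Cebpa, fell from 4029, 4072, 4031 and 4017 normalized reads at day 0 to 2473, 2606, 2469 and 2457 at day 3 (-0.67 ± 0.04 SE, adjusted p = 2.37e-18). It reached 2263, 2198, 2353 and 2356 at day 7 and returned to 3640, 3481, 3502 and 3571 at day 11, below day 0 in each library. The small step from day 3 to day 7 (-0.12 ± 0.04 SE, adjusted p = 0.00249) lost its call when libraries were scaled to equal totals (adjusted p = 0.0892). Klf7 fell from 1051 to 1233 at day 0 to 604 to 766 at day 3 (-0.62 ± 0.06 SE, adjusted p = 4.30e-11), lay at 603 to 682 at day 7 and rose to 809 to 885 at day 11 (0.35 ± 0.06 SE, adjusted p = 9.65e-06). Days 3 and 7 overlapped for Klf7 (-0.11, 95% interval -0.23 to 0.02, adjusted p = 0.119). Without control replicate 1 of day 3 that step was called (adjusted p = 0.0113).

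**Figure D2:**
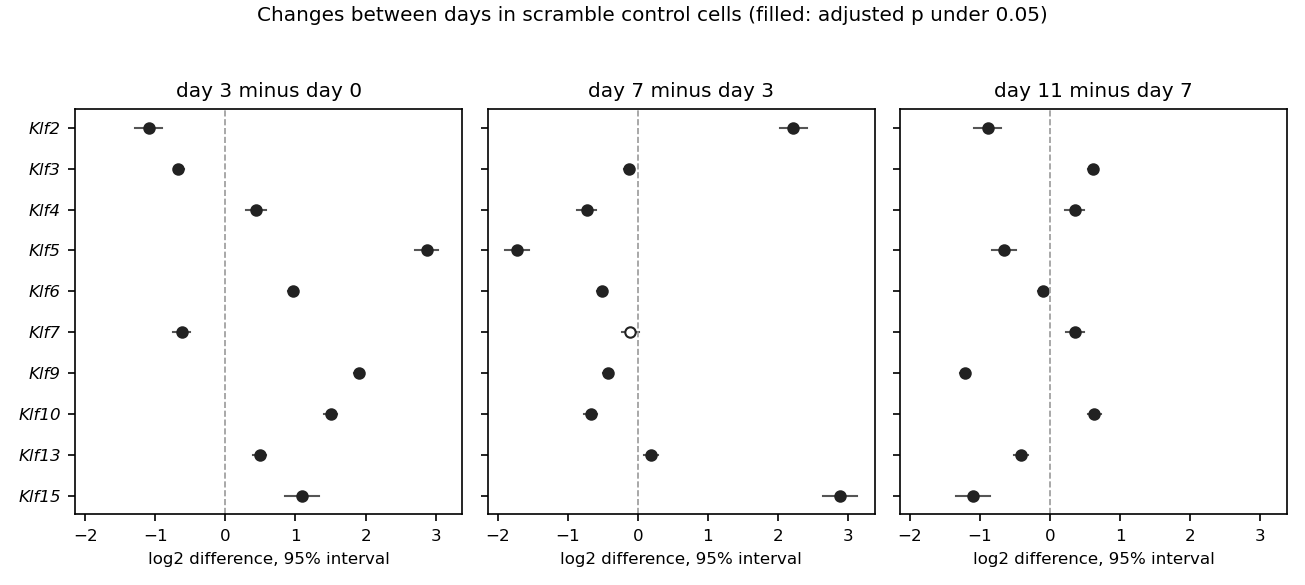
Log2 difference (horizontal axis, shared scale) with its 95% interval between successive days in control cells for each member (vertical axis), 4 libraries a day; filled points passed the test. On this scale Klf5, Klf9 and Klf10 lead the rises at the first step, Klf15 and Klf2 at the second, and Klf9, Klf15 and Klf2 the falls at the third; in normalized reads Klf15 rose 5.48-fold at the first step, above Klf9 at 3.93-fold.

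The number of members called with Zbtb9 knockdown differed between days, as did the share of all genes called. At day 0, 1 of 10 members was called, lower, where 3.25% of 13216 genes were (0.817% higher and 2.44% lower). Of those day 0 calls 25.1% were higher, and 43.3% with equal totals. At day 3, 1 of 10 was called, higher, where 26.7% of 13139 genes were (14.6% and 12.1%). At day 7, 7 of 10 were called, 2 higher and 5 lower, where 47.6% of 13299 genes were (24.9% and 22.6%). At day 11, 7 of 10 were called, 6 higher and 1 lower, where 33% of 13281 genes were (16.8% and 16.2%). The median log2 difference of the members was -0.15, -0.08, -0.19 and 0.23 at the 4 days, beside -0.01, 0.00, 0.01 and -0.01 for all genes tested. Each day has its own controls. When the shRNAs were fitted as separate groups and averaged, 7 members were called at day 0 and 5 at day 3, beside 3340 and 5311 genes, so the low counts of these days depend on the fit. The calls gained at day 0 were Klf5, Klf6, Klf7, Klf9 and Klf10 lower and Klf13 higher. Those gained later were Klf2, Klf3 and Klf7 lower and Klf15 higher at day 3, and Klf4 higher at day 11. Such an average can call a gene whose shRNAs disagree. Against control, shRNA 1 and shRNA 2 stood at 0.21 and -0.84 for Klf2 and -0.22 and 0.0 for Klf3 at day 3. They stood at -0.29 and -0.03 for Klf7 at day 0 and at 0.36 and 0.01 for Klf4 at day 11.

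**Figure D3:**
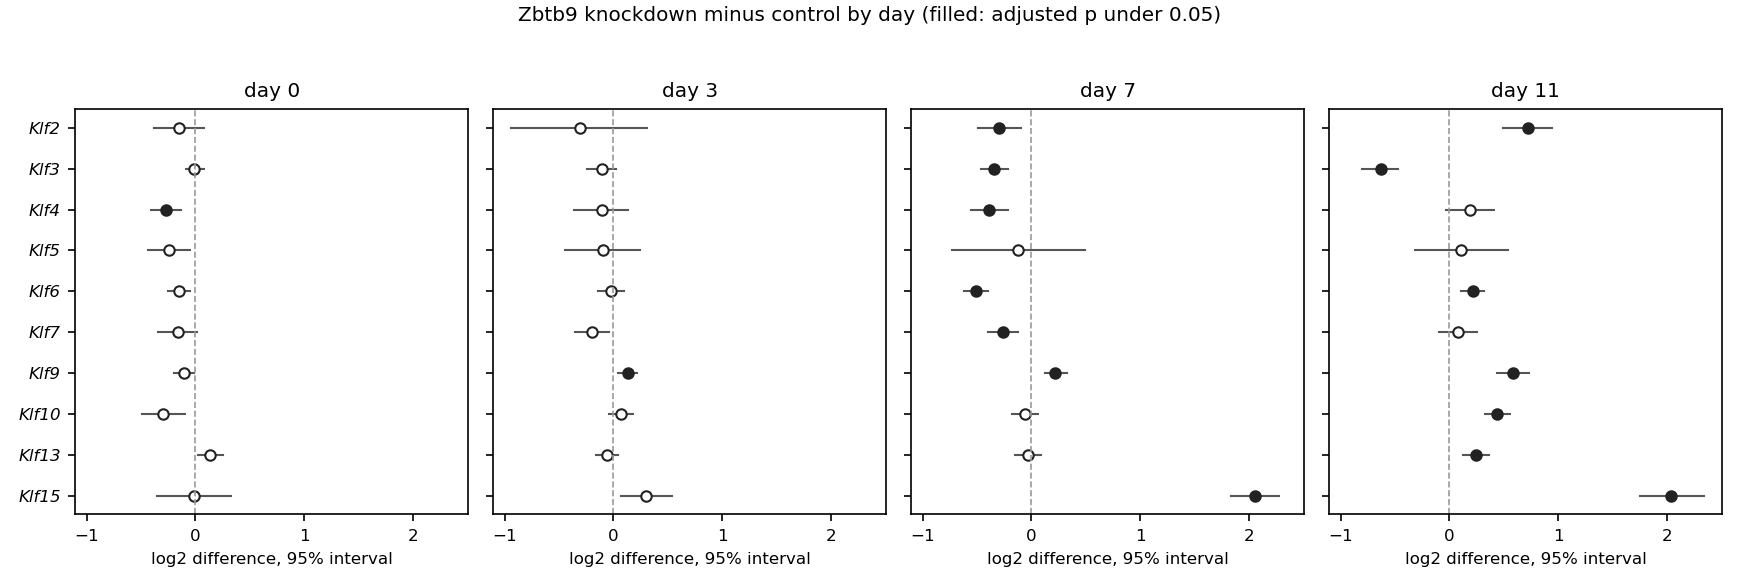
Log2 difference between Zbtb9 knockdown and control (horizontal axis, shared scale) with its 95% interval for each member (vertical axis) at each day, 4 libraries against 4; filled points passed the test. Klf15 stands at 2.05 and 2.04 at days 7 and 11, and Klf2 and Klf6 are called lower at day 7 and higher at day 11.

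Klf15 had the largest difference. At day 0 its normalized reads were 3.37, 8.10, 9.38 and 1.66 in control, 2.77 and 9.74 in shRNA 1 and 7.91 and 0.93 in shRNA 2 libraries. All are below 10, so Klf15 passed the day 0 filter only by its deposited values, which are drawn towards its mean over all days. At day 3 the normalized reads were 29.4, 29.6, 34.5 and 29.8 in control, 36.3 and 50.8 in shRNA 1 and 40.0 and 42.8 in shRNA 2 libraries. All 4 knockdown libraries of day 3 lay above all 4 controls, but the difference did not pass the test in the 2-group fit (0.30 ± 0.11 SE, adjusted p = 0.0577). At day 7 the reads were 395, 324, 315 and 360 in control, 1943 and 1674 in shRNA 1 and 1325 and 1456 in shRNA 2 libraries. At day 11 they were 159, 147, 163 and 135 in control, 910 and 763 in shRNA 1 and 537 and 645 in shRNA 2 libraries. Each knockdown library of days 7 and 11 was far above each control. The means were 1600 ± 271 (SD, n = 4) in knockdown and 348 ± 36.7 (SD, n = 4) in control cells at day 7, a 4.59-fold difference (2.05 ± 0.10 SE on the log2 scale, adjusted p = 2.11e-09, rank 45 of 13299 genes). At day 11 the difference was 4.73-fold (2.04 ± 0.14 SE, adjusted p = 1.41e-06, rank 28 of 13281). The call was kept under each of the 17 other settings at both days.

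Klf9 was higher in knockdown cells at the 3 later days. At day 0 its normalized reads were 2209, 2255, 2402 and 2336 in control, 2197 and 2057 in shRNA 1 and 2177 and 2097 in shRNA 2 libraries, with the knockdown libraries slightly below the controls (-0.11 ± 0.04 SE, adjusted p = 0.211). At day 3 the reads were 8588, 9225, 9370 and 8937 in control, 9671 and 10221 in shRNA 1 and 9675 and 10131 in shRNA 2 libraries. The groups did not overlap (0.13 ± 0.04 SE, adjusted p = 0.0307), but the call was lost in 6 of 17 other settings, among them leaving out shRNA 1 replicate 2 or control replicate 1, 2 or 4 (adjusted p up to 0.106). At day 7 they were 6627, 6766, 7021 and 6264 in control, 7973 and 7850 in shRNA 1 and 7451 and 8026 in shRNA 2 libraries, a difference of 0.22 ± 0.05 SE (adjusted p = 0.00171). At day 11 they were 2773, 2679, 2835 and 2883 in control, 4624 and 4601 in shRNA 1 and 3842 and 3935 in shRNA 2 libraries, a 1.52-fold difference (0.58 ± 0.07 SE, adjusted p = 6.08e-05). Control cells at day 11 stood at 1.21 times their day 0 mean and knockdown cells at 1.99 times theirs.

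Klf10 and Klf13, the other Sin3-binding members, were called at day 11 alone in the 2-group fits. With the shRNAs fitted as separate groups and averaged, both were also called at day 0 (Klf10 lower, adjusted p = 1.24e-04, and Klf13 higher, 0.0173). Klf10 at day 11 held 2121, 2289, 2300 and 2344 in control, 3184 and 3257 in shRNA 1 and 3073 and 2936 in shRNA 2 libraries. All knockdown libraries were above all controls (0.44 ± 0.05 SE, adjusted p = 7.79e-05). At day 0 its knockdown mean was 80.9% of control without passing the test (-0.30 ± 0.09 SE, adjusted p = 0.106), and at days 3 and 7 the ratios were 1.05 and 0.956. Klf13 at day 11 held 1925, 1830, 1965 and 2077 in control, 2458 and 2185 in shRNA 1 and 2270 and 2363 in shRNA 2 libraries, with no overlap between the groups (0.24 ± 0.06 SE, adjusted p = 0.00656). Its differences at days 3 and 7 were -0.06 (95% interval -0.16 to 0.04) and -0.03 (-0.15 to 0.09).

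Klf6 was lower in knockdown cells at day 7 and higher at day 11. At day 7 its normalized reads were 7409, 6992, 7393 and 7318 in control, 5246 and 4994 in shRNA 1 and 5386 and 4619 in shRNA 2 libraries. Knockdown libraries lay below the controls without overlap, at 69.5% of the control mean (-0.51 ± 0.05 SE, adjusted p = 1.49e-06). At day 11 they were 6975, 6591, 6834 and 6656 in control, 7725 and 7624 in shRNA 1 and 8081 and 8186 in shRNA 2 libraries. The groups were again separate, but with knockdown higher (0.22 ± 0.05 SE, adjusted p = 0.00510). Klf4 was lower at day 0, with 1496, 1645, 1654 and 1638 in control, 1372 and 1377 in shRNA 1 and 1389 and 1156 in shRNA 2 libraries, and all knockdown libraries below all controls (-0.27 ± 0.06 SE, adjusted p = 0.0449). That call was lost in 10 of 17 other settings, among them leaving out either shRNA 1 library or any 1 of the controls (adjusted p up to 0.146). At day 7 Klf4 held 1195, 1327, 1513 and 1196 in control, 1090 and 1009 in shRNA 1 and 937 and 898 in shRNA 2 libraries, with no overlap (-0.39 ± 0.08 SE, adjusted p = 7.87e-04). At day 11 it was not called (0.19, 95% interval -0.03 to 0.41, adjusted p = 0.180).

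Among the brakes, Klf3 was lower and Klf2 higher in knockdown cells at day 11. Klf3 at day 7 held 2263, 2198, 2353 and 2356 in control, 1670 and 1723 in shRNA 1 and 1945 and 1832 in shRNA 2 libraries. At day 11 it held 3640, 3481, 3502 and 3571 in control, 2261 and 1918 in shRNA 1 and 2592 and 2277 in shRNA 2 libraries. Knockdown libraries were below controls on both days (day 7, -0.34 ± 0.06 SE, adjusted p = 1.22e-04; day 11, -0.63 ± 0.07 SE, adjusted p = 7.79e-05), at 78.2% and 63.7% of the control mean. The return of Klf3 from day 7 to day 11 was 1.55-fold in control and 1.26-fold in knockdown cells. Klf2 at day 7 held 580, 791, 846 and 702 in control, 593 and 555 in shRNA 1 and 559 and 611 in shRNA 2 libraries, where the groups overlapped at the lowest control library (-0.30 ± 0.09 SE, adjusted p = 0.0163). Leaving out control replicate 2 or 3 ended that call (adjusted p = 0.0600 and 0.0680). At day 11 Klf2 held 369, 429, 306 and 380 in control, 545 and 701 in shRNA 1 and 639 and 661 in shRNA 2 libraries, each knockdown library above each control, at a 1.72-fold mean difference (0.72 ± 0.10 SE, adjusted p = 2.91e-04). Klf7 was lower at day 7, at 507 to 559 normalized reads in knockdown and 603 to 682 in control libraries (-0.26 ± 0.07 SE, adjusted p = 0.00469), and was not called at day 11 (0.08, 95% interval -0.10 to 0.25).

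The change of the knockdown difference with time was tested as an interaction, each day against day 0, with the day 0 libraries shared by the 3 tests. At day 3, 2 of 10 members differed from day 0, where 6.57% of 13571 genes did. At day 7, 4 of 10 did, where 29.9% of genes did. At day 11, 7 of 10 did, where 23.2% of genes did. Klf15 gained 2.06 ± 0.20 SE by day 7 (adjusted p = 8.21e-10) and 2.05 ± 0.20 SE by day 11 (adjusted p = 1.23e-09). With voom on rebuilt reads the day 11 value of Klf15 was 2.36 with an adjusted p of 0.0543. Klf9 gained 0.69 ± 0.07 SE by day 11 (adjusted p = 6.34e-09), Klf10 0.74 ± 0.09 SE (adjusted p = 3.11e-07) and Klf2 0.87 ± 0.25 SE (adjusted p = 0.0113). Klf3 moved the other way, by -0.63 ± 0.09 SE (adjusted p = 1.46e-06). Klf5, Klf7 and Klf13 were not called at any of the 3 days in the main fit of this test. With equal totals Klf13 was called at days 3 and 7 (-0.225 and -0.232, limma adjusted p = 0.0481 and 0.0116). Without shRNA 1 replicate 1 of day 0 it was also called on both days (-0.235 and -0.205). Klf7 was called at day 11 without shRNA 2 replicate 1 of that day (0.322).

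At days 3 and 7 Klf5 lay on opposite sides of control with the 2 shRNAs, while at day 0 both were below the control mean (-0.11 and -0.38). With both pooled in the 2-group fits, Klf5 was not called on any day (at day 0, adjusted p = 0.0102 with the shRNAs fitted as separate groups and averaged), and its day 7 interval was wide (-0.12, 95% interval -0.73 to 0.49). At day 3 its normalized reads were 2555, 2973, 2804 and 2786 in control, 2270 and 1974 in shRNA 1 and 3093 and 3161 in shRNA 2 libraries. At day 7 they were 742, 873, 778 and 785 in control, 555 and 474 in shRNA 1 and 1078 and 981 in shRNA 2 libraries. On both days both shRNA 1 libraries lay below all controls and both shRNA 2 libraries above them. Against the control mean, day 7 stood at -0.59 with shRNA 1 and 0.36 with shRNA 2 on the log2 scale. The difference between the shRNAs was 0.54 ± 0.06 SE at day 3 (adjusted p = 6.07e-08) and 0.95 ± 0.09 SE at day 7 (adjusted p = 5.72e-08, rank 38 of 13299 genes). At day 11 the order was turned, with 380, 491, 589 and 511 in control, 621 and 702 in shRNA 1 and 378 and 473 in shRNA 2 libraries, and shRNA 2 below shRNA 1 (-0.60 ± 0.16 SE, adjusted p = 0.0206). Leaving out shRNA 1 replicate 2 or shRNA 2 replicate 1 ended that call (adjusted p = 0.143 and 0.148).

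Klf2 also lay on opposite sides at day 3, in the other order. Its reads were 133, 124, 120 and 140 in control, 164 and 143 in shRNA 1 and 75.0 and 49.4 in shRNA 2 libraries. Both shRNA 1 libraries were above and both shRNA 2 libraries below all 4 controls. The shRNAs differed by -1.04 ± 0.15 SE (shRNA 2 minus shRNA 1, adjusted p = 2.58e-06), rank 30 of 13139 genes. Klf6 did so at day 3 with a smaller difference (-0.23 ± 0.04 SE, adjusted p = 1.51e-04). In all, shRNA 2 differed from shRNA 1 for 3 of 10 members at day 0 (35% of genes), 4 of 10 at day 3 (19.6%), 2 of 10 at day 7 (16.4%) and 4 of 10 at day 11 (22%). Leaving out 1 library gave 1 to 4 members at day 0 and 1 to 6 at day 11.

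Klf15 was above control with both shRNAs, but not to the same level. At day 7 the ratio to control was 5.19 with shRNA 1 and 3.99 with shRNA 2, and at day 11 5.54 and 3.92. The shRNAs differed by -0.35 ± 0.10 SE at day 7 (adjusted p = 0.0175) and -0.47 ± 0.13 SE at day 11 (adjusted p = 0.0139). Leaving out replicate 1 of either shRNA ended both calls (adjusted p from 0.114 to 0.237). Klf9 at day 7 had ratios of 1.19 and 1.16, and the shRNAs differed by -0.03 (95% interval -0.15 to 0.09). At day 11 the Klf9 ratios were 1.65 and 1.39, a called difference of -0.24 ± 0.06 SE (adjusted p = 0.00719) that was lost without shRNA 2 replicate 1 (adjusted p = 0.0545). Each shRNA ratio is set against the same controls. Of the members called at day 11, Klf2, Klf3, Klf6, Klf9, Klf10, Klf13 and Klf15 each had both shRNAs on the same side of control, outside the control range. Genes called in a test of 4 against 4 libraries tend to separate in this way. The share of all called genes that did so is not given here, so this is a description.

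**Figure D4:**
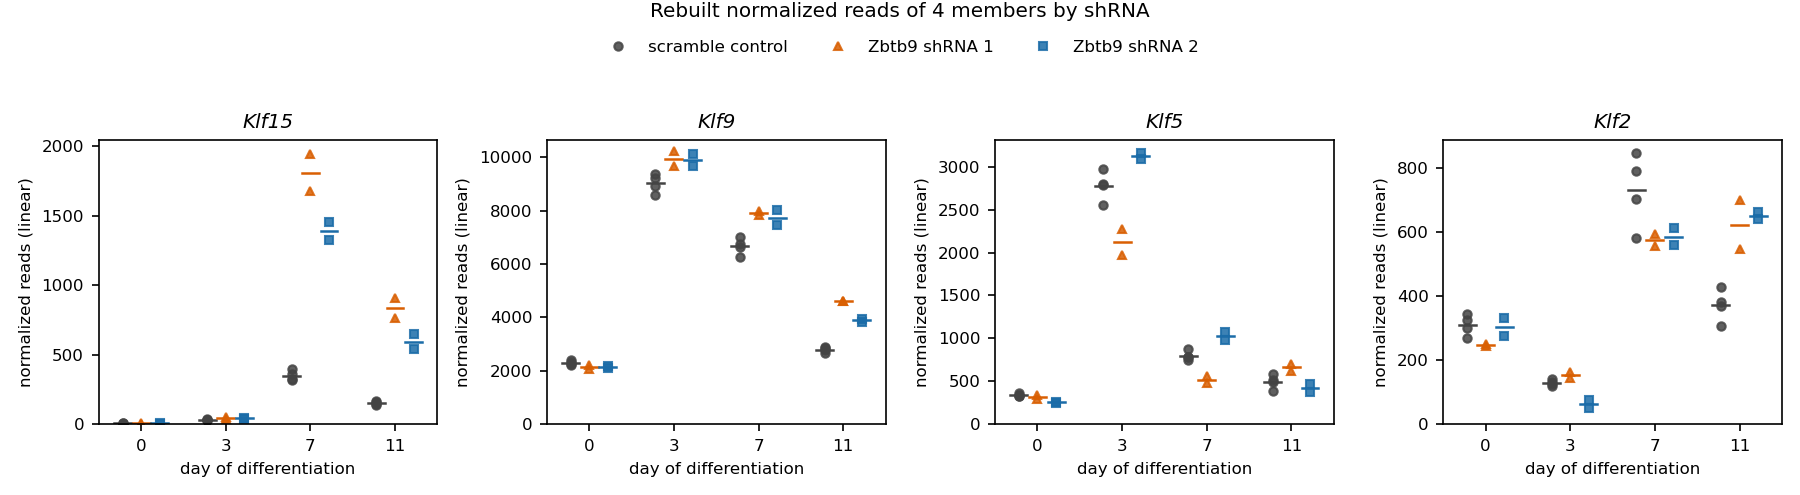
Normalized reads (vertical axis, linear, from 0) of Klf15, Klf9, Klf5 and Klf2 by day (horizontal axis); each point is 1 library, and short bars are the mean of 4 control, 2 shRNA 1 or 2 shRNA 2 libraries. Klf15 and Klf9 sit above control with both shRNAs at days 7 and 11, while Klf5 at days 3 and 7 and Klf2 at day 3 sit on opposite sides of control.

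Genes known to work with the members were read from lists set alongside them. Of 8 adipogenic regulators, 4 were higher and 1 lower in knockdown cells at day 7 and 5 higher and 1 lower at day 11, with medians of 0.33 and 0.43 beside 0.01 and -0.01 for all genes, of which 47.6% and 33% were called. Cebpa, repressed by Klf3, was at 4.20 times control at day 7 (1.99, adjusted p = 2.97e-10) and 3.27 times at day 11 (1.63, adjusted p = 7.69e-07). Pparg, the master regulator of fat cells and a target of Klf2, Klf5, Klf9 and Klf15, was at 2.32 and 2.29 times control (1.17 and 1.15, adjusted p = 8.48e-11 and 5.84e-07). Egr2, the partner of Klf4, was lower at day 0 (-0.85, adjusted p = 0.00375) and higher at day 7 (1.93, adjusted p = 1.38e-08). Dlk1, the preadipocyte factor that Klf6 represses, was lower at days 7 and 11 (-0.24 and -0.33, adjusted p = 0.0119 and 0.0198) and higher at day 3 (0.36, adjusted p = 0.00175).

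Known targets of Klf15 were higher together with it. Of the 7 listed, Slc2a4, Acss2, Prodh, Gpt, Bcat2 and Bckdha passed the filter at days 7 and 11, and 6 of 6 were higher on both days, where 24.9% and 16.8% of all genes were. Their medians were 1.40 and 0.73, beside 0.01 and -0.01 for all genes. The 12 adipocyte markers, which also hold Slc2a4, had medians of 1.80 and 1.86. A gene that passed the filter only through its knockdown libraries had to be higher, so the count of 6 of 6 is a description. Slc2a4 had the largest difference of the 6. Its normalized reads ran from 290 to 334 in control and from 2218 to 2753 in knockdown libraries at day 7, an 8.01-fold difference (2.84, adjusted p = 8.78e-13, rank 9 of 13299). At day 11 they ran from 86.0 to 136 and from 702 to 954 (2.70, adjusted p = 1.55e-07). Gpt, an alanine aminotransferase, was at 5.03 times control at day 7 (2.06, adjusted p = 9.06e-10), and Bcat2, the mitochondrial branched-chain aminotransferase, at 2.81 times (1.43, adjusted p = 7.68e-09). At day 3, Slc2a4 alone of 5 tested was called (0.79, adjusted p = 0.00121), where 26.7% of all genes were. It held 3.17 to 9.47 reads in control and 15.0 to 31.8 in knockdown libraries.

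Among glucocorticoid-induced genes, which share an inducer with Klf9 and Klf15, 7 of 8 rose in control cells from day 0 to day 3, where 38.3% of all genes rose, and 7 of 8 fell from day 7 to day 11, where 26.1% fell. In knockdown cells 5 of 8 were higher and 2 lower at day 7, where 24.9% and 22.6% of all genes were, and again 5 higher and 2 lower at day 11 (16.8% and 16.2%). The medians of the list were 0.33 and 0.56, beside 0.01 and -0.01 for all genes. The members of the list did not move as one. Per1 was higher at day 11 (1.11, adjusted p = 5.24e-07), and Dusp1 likewise (1.16, adjusted p = 1.13e-06), while Tsc22d3 was lower on both days (-0.60 and -0.33, adjusted p = 4.03e-07 and 0.00412). Fkbp5 was higher at day 7 (0.41, adjusted p = 7.89e-06) and lower at day 11 (-0.36, adjusted p = 0.0226).

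To describe what else shared each member's course, the 2 genes with the highest Pearson correlation over the 12 group means were taken from 6123 genes that spanned at least 1 log2 unit. The points share libraries and days, so these values describe likeness only. Klf15 was most like Slc2a4 (r = 0.994) and Tst (0.993), and Klf9 most like Cav1 (0.990) and Adam15 (0.988). Klf3 was nearest to Vcam1 (0.978) and Pcdhb17 (0.976), Klf13 to Kremen1 (0.974) and Aldh1a7 (0.965), and Klf5 to Anapc16 (0.972) and Piwil2 (0.968). Klf2 was nearest to Adm (0.970) and Dag1 (0.968), Klf10 to Ppp1r15a (0.968) and Hax1 (0.962), and Klf7 to Thbs1 (0.966) and Cplane1 (0.950). Klf6 (Mllt11, 0.961, and Dnajb4, 0.948) and Klf4 (Utp15, 0.904, and Fzd7, 0.900) had the least close partners. Between members, Klf5 and Klf9 were the most alike over the 12 means (r = 0.871), and Klf3 and Klf13 the most opposed (-0.921). For Klf5 and Klf15 the value was 0.009.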

How the data were processed

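RNA was sequenced in 32 libraries of 3T3-L1 cells. The deposited log2 values (range -1.56 to 17.99) look like the output of a regularized log transform, a step that no header or label names. Per the submitters' processing notes, TopHat2 2.1.0, Bowtie2 2.2.6, SAMtools 1.3.1 and HTSeq 0.6.1 were used, with no role given. The build, annotation and strand setting are not given in the sources used here. Groups and replicate numbers come from the sample titles. The members and gene lists were chosen with earlier results of these data known, and the text names all 10 members, Zbtb9, called genes of the lists, and the 2 genes most like each member.

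Whole reads were rebuilt by inverting the transform. The rebuilt value lay within 0.1 reads of an integer for 96.6% of values (20% by chance) and for 319 of the 320 values of members. These reads give depth and normalized reads, and precision at low levels is limited by counting.

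limma 3.58.1 (R 4.3.3) with a mean trend and robust moderation was fitted to the deposited log2 values, with no pseudocount, after a filter of 2 to the power of the value at 10 or more in at least 4 libraries. Benjamini-Hochberg adjustment ran over all genes tested, and the threshold was 0.05. Each day's knockdown test used 4 against 4 libraries. The control course used 16 libraries, the interaction all 32, and the shRNA comparison a 3-group fit of a day. Alternatives were no filter, a filter at 50, equal totals, no trend or robust moderation, other groupings, a replicate block and leaving out single libraries. Chosen after seeing the data were log2 of rebuilt normalized reads plus 1 and voom on rebuilt reads. The rebuilding and the limma fits were tested on simulated data. All 32 pairs of replicates differed by more than sampling noise (chi-square per degree of freedom 2.92 to 11.0), so no library counts as a duplicate. Positions come from GENCODE M21 (GRCm38), where 20521 of 20560 identifiers matched, and promoters from RefSeq (GRCm38.p6).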

Additional observations from a re-analysis of the deposited data

Results flagged for a closer look

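The knockdown difference on a later day differed from that of day 0, by the interaction test of limma over 13571 genes, for 13 combinations of member and day. At day 3 these were Klf9 (0.24 ± 0.07 SE, adjusted p = 0.0377) and Klf10 (0.37 ± 0.09 SE, adjusted p = 0.0122). The Klf9 call at day 3 was lost in 11 of 23 other settings (adjusted p up to 0.0881). These were no filter, equal totals, no trend or robust moderation, and leaving out 1 library, namely shRNA 1 replicate 2, shRNA 2 replicate 2 or control replicate 3 or 4 of day 0, or shRNA 1 replicate 2, shRNA 2 replicate 2 or control replicate 1 or 4 of day 3. At day 7 they were Klf3 (-0.34 ± 0.09 SE, adjusted p = 0.00317), Klf6 (-0.36 ± 0.07 SE, adjusted p = 2.64e-04), Klf9 (0.33 ± 0.07 SE, adjusted p = 5.49e-04) and Klf15 (2.06 ± 0.20 SE, adjusted p = 8.21e-10). At day 11 they were Klf2 (0.87 ± 0.25 SE), Klf3 (-0.63 ± 0.09 SE), Klf4 (0.46 ± 0.14 SE), Klf6 (0.37 ± 0.07 SE), Klf9 (0.69 ± 0.07 SE), Klf10 (0.74 ± 0.09 SE) and Klf15 (2.05 ± 0.20 SE), with adjusted p-values from 1.23e-09 for Klf15 to 0.0176 for Klf4. Of these, Klf2 and Klf6 were called lower at day 7 and higher at day 11 in the tests within a day.

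In 5 of 40 groups of 4 control libraries, 1 library stood apart from the other 3 by Dixon's test at the 95% level, where chance gives about 1 group in 20. They were Klf3 at day 3 (replicate 2, log2 value 11.35), Klf4 at day 0 (replicate 1, 10.55), Klf7 at day 0 (replicate 4, 10.23), Klf13 at day 7 (replicate 3, 11.49) and Klf15 at day 3 (replicate 3, 5.50). The 5 libraries are different ones.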

How the results depend on the processing

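Over 150 member results and 2646 values in other settings, 2534 kept their side of the threshold, 63 lost a call and 49 gained one. Direction was compared only where the main or the other fit made a call, and 0 of these reversed. Signs could turn where neither made a call, as for the knockdown difference of Klf5 at day 7 (-0.117, from -0.297 to 0.075). With the shRNAs averaged in a 3-group fit, 3340 genes and 7 members were called at day 0 and 5311 genes and 5 members at day 3. In 1 fit of all 32 libraries these were 2409 and 6 at day 0, 5 members at day 3 and 6792 genes at day 11, and 1 member differed between shRNAs at day 7. Without trend and robust moderation there were 261 genes and 0 members at day 0, 1 member for the effect of day 3 against day 0, and, between shRNAs, 1454 genes at day 3, 1035 genes and 1 member at day 7 and 2 members at day 11. Without the filter there were 0 members at day 0, 1 for the effect at day 3, 1710 genes between shRNAs at day 3 and 1 member at day 7. Equal totals gave 0 members at day 0.

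Same-numbered libraries had correlated deviations from -0.094 to 0.215. Of 16 knockdown and control pairs 3 were over 0.1, all of day 11 (0.215, 0.126 and 0.142, with the fourth pair of that day at 0.004), so not every pair was and the numbers were not taken as a pairing. With a replicate block the knockdown tests called 0, 845, 4112 and 1652 genes at the 4 days, and 0, 0, 5 and 6 members. The knockdown calls that were lost are Klf4 at day 0 (adjusted p = 0.607), Klf9 at day 3 (0.126), Klf2 and Klf7 at day 7 (0.178 and 0.0843) and Klf6 at day 11 (0.106).

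Leaving out 1 library gave, for knockdown, 111 to 562 genes and 0 to 1 members at day 0 and 0 to 1 members at day 3. It gave 1 to 3 members for the effect of day 3 against day 0. Between shRNAs it gave 1 to 4 members at day 0, 1633 to 2592 genes at day 3, 1003 to 2385 genes and 1 to 2 members at day 7, and 1479 to 2928 genes and 1 to 6 members at day 11. The cause of these shifts was not tested. Klf15 at day 0 rests on 0.93 to 9.74 normalized reads per library, and the interval of its knockdown difference there was -0.35 to 0.33.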

Other observations

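Of 14 other KLF and SP genes listed, 11 were in the table and 7 passed the filter. Klf12, a CtBP-binding repressor, was at 61.3% of control in knockdown cells at day 7 (-0.57, limma adjusted p = 9.61e-04) and 56.3% at day 11 (-0.65, adjusted p = 8.16e-04), with no overlap between the groups on either day. Klf11, a TGF-beta-inducible relative of Klf10, was 1.24-fold higher at day 11 (0.29, adjusted p = 0.0114). Of the GC-box factors, Sp3 was higher at day 3 (0.23, adjusted p = 0.00975). At day 7 Sp1 was lower (-0.15, adjusted p = 0.0187) and Sp2 and Sp3 higher (0.20 and 0.12, adjusted p = 0.0440 and 0.0460). Of 12 KLF cofactors, 2 were higher and 4 lower at day 7, a share called close to the 47.6% of all genes, among the lower ones the histone acetyltransferase genes Crebbp (-0.37, adjusted p = 0.00164) and Ep300 (-0.20, adjusted p = 0.00870), and none was called at day 11.

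Klf2, Klf4, Klf6 and Klf10 are early response genes in many cells, and 9 other serum and cAMP early genes were listed. In knockdown cells 3 of 9 were lower and none higher at day 0 (3.25% of all genes called), Fos (-0.60, adjusted p = 0.00178), Egr3 (-0.70, adjusted p = 0.0373) and Nr4a1 (-0.55, adjusted p = 0.0126). At day 3, Fos, Ier2 and Crem were higher and Egr3 and Nr4a1 lower (26.7% of all genes called). At day 7, 4 of 9 were higher and none lower (47.6%). At day 11, 6 of 9 were higher and none lower (33%), with Jun at 1.10 (adjusted p = 9.05e-06), Egr3 at 0.74 (adjusted p = 0.00138) and Fos at 0.70 (adjusted p = 6.66e-04).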
